A study of Mus musculus with 2 samples.

Results

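Myrf, Tmem98, Mfrp, Prss56 and Crb1 are the mouse counterparts of human genes in which variants cause nanophthalmos or a small, strongly hyperopic eye. These 5 genes were taken by symbol from the 32285 genes of the deposited single-cell count matrices, and their unique molecular identifiers (UMIs, which count captured RNA molecules) were followed across cell classes of the embryonic eye cup in 2 genotypes. Each genotype was represented by 1 droplet library at E17.5, made per the labels from 3 pooled eye cups. The study's methods instead count more than 3 eyes, from 3 mice per genotype. With 1 library each, no value between genotypes has a replicate and none carries a p-value. One library came from Myrf humWT/humWT mice, the humanized control, and the other from Myrf humdG/humdG mice, the humanized variant. In both alleles, made in fertilized C57BL/6J eggs, the last coding exon of mouse Myrf was exchanged for its human counterpart. The humdG allele was made from the humWT allele. Its C-terminal end carries the frameshift that a splice site variant causes in patients, and homozygotes are lost before birth. The mice were screened against the rd1, rd8 and rd10 retinal degeneration alleles, of which rd8 lies in Crb1.

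MYRF is a membrane-anchored transcription factor that cuts itself, so that its N-terminal part can enter the nucleus. It is known for driving myelin genes in oligodendrocytes, and in the eye it acts in the retinal pigment epithelium (RPE), the pigmented layer behind the retina. TMEM98 is a membrane protein that binds MYRF and blocks its cleavage, and its gene is itself a MYRF target. MFRP, a frizzled-related membrane protein, is made by the RPE and the ciliary epithelium. PRSS56 is a secreted serine protease of retinal glia and their precursors, and CRB1 is the transmembrane core of the Crumbs polarity complex at the apical side of retinal progenitors and glia.

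In GRCm38 with the GENCODE M21 annotation, the genes lie at chr1:87183313-87188405 on the plus strand (Prss56), chr1:139197056-139377100 on the minus strand (Crb1), chr11:80810175-80822033 on the plus strand (Tmem98), chr19:10208272-10240748 on the minus strand (Myrf) and chr9:44101729-44109187 on the plus strand (Mfrp). The coding end of Myrf is shown because it is the coding part of the exon that both alleles replaced. It covers chr19:10210385-10210465 on the minus strand, the beginning of exon 27, the last of the transcript used in that annotation. The capitals mark the mouse stop codon.
Myrf coding end: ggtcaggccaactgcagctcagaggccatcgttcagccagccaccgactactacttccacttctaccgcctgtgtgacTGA
The study's methods state that the exchange also took in human untranslated sequence and fused the exon to the mouse exon before it. Reads over these 81 bases, or over other exchanged sequence, would carry human bases in both libraries, and how they were assigned was not tested.

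The upstream region of Mfrp is shown because its RefSeq start is shared with C1qtnf5, the gene that lies inside its 3′ end. In the GENCODE annotation C1qtnf5 starts further downstream, at chr9:44107245. RefSeq promoter windows of GRCm38.p6, from 250 bases before to 50 after a start, were at hand for 4 of the 5 genes (Myrf had none), and the window of Mfrp was the same as that of C1qtnf5. The 209 bases printed here, chr9:44101520-44101728 on the plus strand, end before the first GENCODE start, and capitals mark the motif matches.
Mfrp upstream: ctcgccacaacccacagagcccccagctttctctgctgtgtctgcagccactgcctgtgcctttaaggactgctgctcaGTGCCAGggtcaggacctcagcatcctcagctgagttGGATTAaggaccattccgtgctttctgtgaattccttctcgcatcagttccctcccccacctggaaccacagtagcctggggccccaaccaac
Both strands were searched for the MYRF motif (CTGGCAC or CTGGTAC), the E-box CACGTG, the related CATGTG and the OTX motif TAATCC, none of which contains another. The first capital run, on the minus strand, matches the MYRF motif and starts 171 bases before the RefSeq start. The second, also on the minus strand, matches the OTX motif and starts 134 bases before it. The windows of Tmem98 and Crb1 each held 1 E-box and no other motif searched, and that of Prss56 held none. Over all 32851 windows in the table, 7.1% held the MYRF motif, 7.15% the E-box, 14.2% CATGTG and 7.06% the OTX motif. A match is a description of these letters only.

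The humWT library held 17421 barcodes with a median of 3758 UMIs, and the humdG library 19565 barcodes with a median of 2572, and 102 barcode sequences occurred in both. After filters, 16166 and 18173 cells were kept. As in the code of the study, the largest first-stage cluster (3373 humWT and 7566 humdG cells, with a median of 2284 and 1651 UMIs) was set aside. The other cells fell into 23 clusters, which were given 16 class names from fixed marker lists, with the 5 genes and C1qtnf5 kept out of the clustering; 3 clusters stayed unnamed. The tissue was labelled eye cup, and muscle-like cells (2176 humWT and 887 humdG) and cartilage-like cells (1164 and 136) were present too. The labels say that the cornea was removed and the study's methods that it was left, and 103 and 104 cells were surface epithelium-like. The melanocyte-like class held more leading genes of other classes than of its own, so its values are given within each library and not compared between genotypes. RPE-like cells numbered 562 in humWT and 413 in humdG. Of the 10 RPE markers, 9 were well above the red blood cell-like level in both libraries (Pmel, a melanosome protein, at 6290 and 7610 CPM), whereas Rpe65, the visual cycle isomerase, was near 0 at 0.688 and 1.2 CPM.

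Levels are in CPM, in which a gene's UMIs from all cells of a class and library are pooled and scaled to a common total, with exact 95% Poisson intervals, and ratios are log2 of humdG over humWT with exact conditional binomial intervals. Because UMIs of 1 library were counted, all intervals cover counting error only and no difference between animals. In these sums fewer expressing cells and less RNA per cell cannot be told apart.

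**Figure D1:**
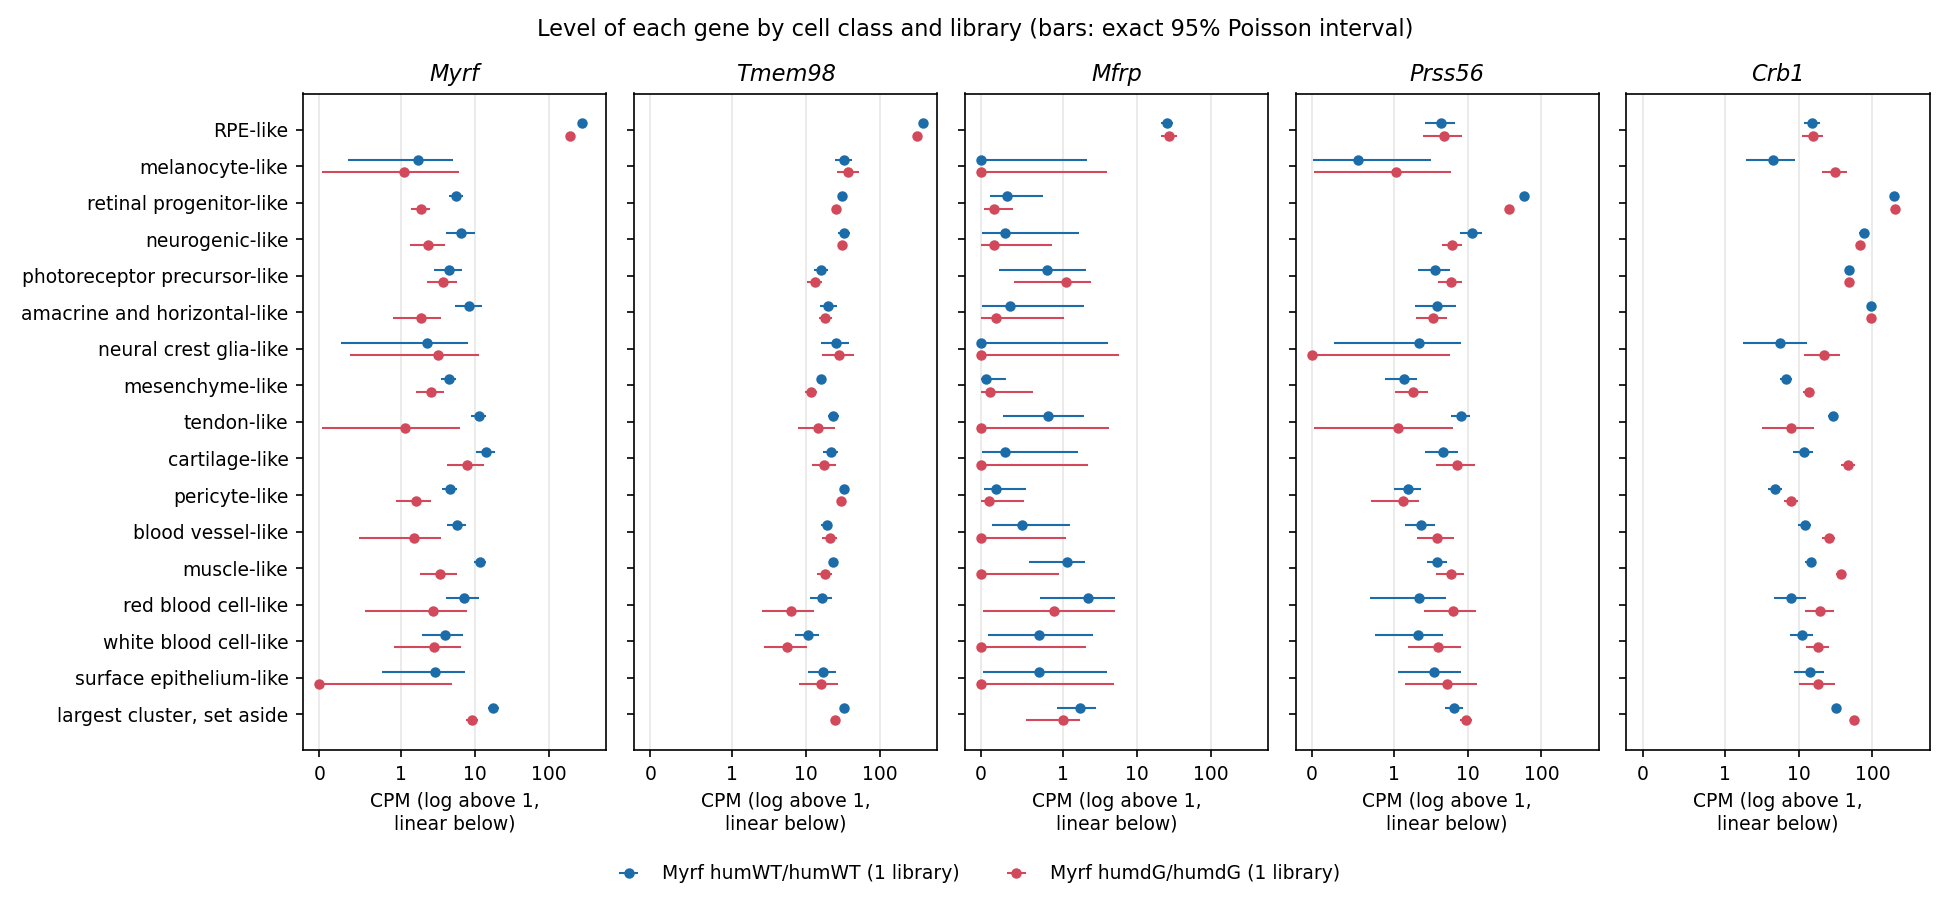
Level of each gene (CPM, log above 1 and linear below) in 16 named classes and in the cluster set aside, for the humWT (blue) and humdG (red) libraries, with exact 95% Poisson intervals. Myrf, Tmem98 and Mfrp were highest in RPE-like cells, and Prss56 and Crb1 in retinal progenitor-like cells, in both libraries.

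Myrf was highest by far in RPE-like cells. Its level there was 281 CPM (interval 265 to 297, 1225 UMIs) in humWT and 195 CPM (178 to 213, 487 UMIs) in humdG. These cells held 57.1% of all Myrf UMIs of the kept humWT cells and 56.7% of those of the humdG cells. The next class in both libraries, cartilage-like, stood at 14.0 and 7.7 CPM, so that the RPE-like level was 20.1-fold and 25.3-fold higher than in any other named class. Below it, neighbouring classes mostly had overlapping intervals, with medians over the 15 other classes of 5.54 CPM in humWT and 2.33 CPM in humdG. Melanocyte-like cells, the other pigmented class, held 3 and 1 Myrf UMIs, or 1.7 and 1.08 CPM. Their level was therefore at or below the 7.03 and 2.68 CPM of red blood cell-like cells, which should make no Myrf.

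The low Myrf level outside RPE-like cells was set against the RPE markers in the same cells. Per 1000 UMIs of the 10 RPE markers, RPE-like cells held 14.8 Myrf UMIs in humWT and 10.6 in humdG. In the 14 classes other than RPE-like and melanocyte-like, the same measure ran from 10.6 (neural crest glia-like) to 30.5 (pericyte-like) in humWT and from 0 (surface epithelium-like) to 38.7 (cartilage-like) in humdG, with medians of 22.1 and 17.8. Melanocyte-like cells, which make many of these markers themselves, held 0.061 and 0.0371. Tmem98 ranged more widely. It stood at 20.2 and 17.6 per 1000 in RPE-like cells and between 36.0 and 222 in the 14 classes of humWT, and between 32.1 and 432 in those of humdG.

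**Figure D2:**
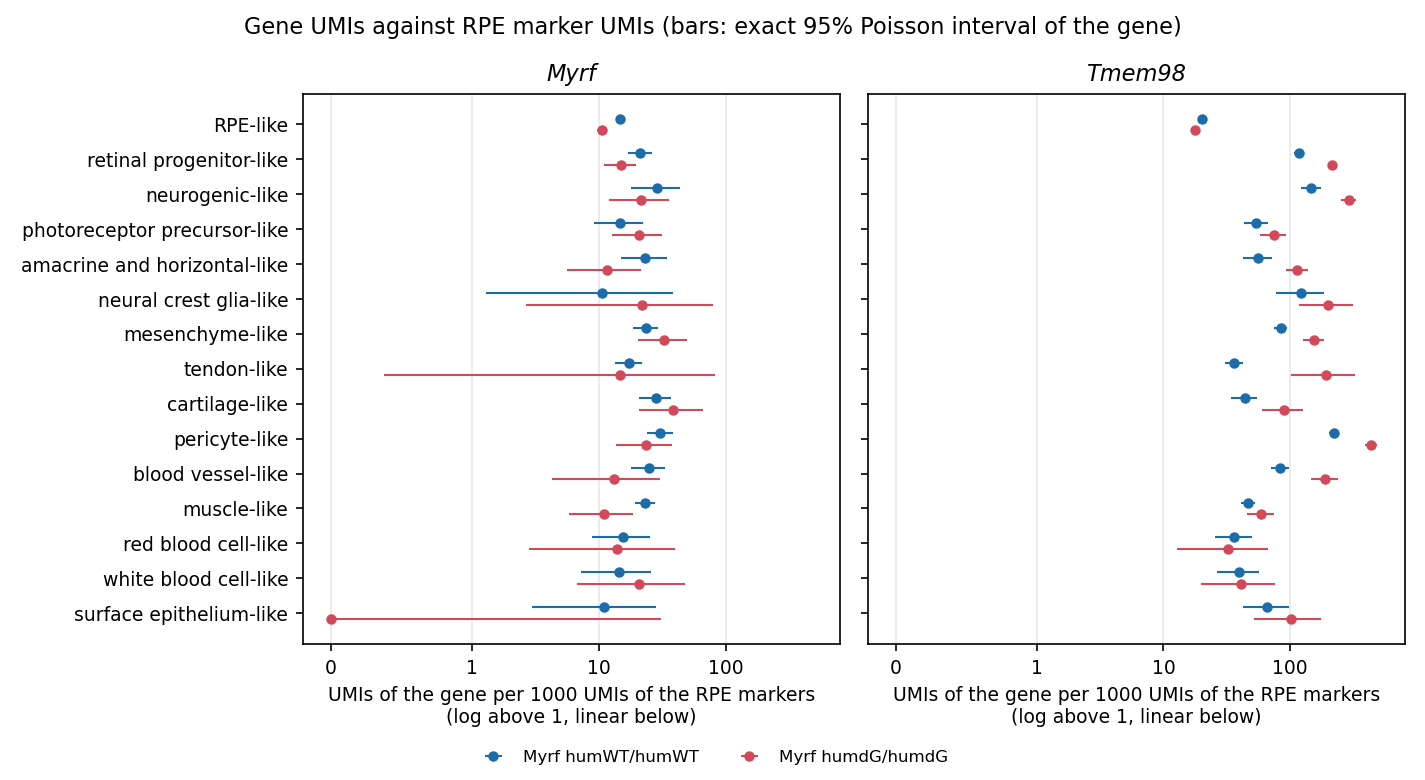
UMIs of Myrf (left) and Tmem98 (right) per 1000 UMIs of the 10 RPE markers in RPE-like cells and 14 other classes, melanocyte-like left out (log above 1, linear below), humWT in blue and humdG in red, with exact 95% Poisson intervals for the gene's UMIs. Myrf runs from 10.6 to 30.5 in 14 humWT classes, while Tmem98 reaches 222 and 432 in pericyte-like cells.

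Between the libraries, Myrf in RPE-like cells was 1.44-fold lower in humdG, a log2 ratio of -0.52 (interval -0.68 to -0.37), against a median of -0.07 over 12665 genes, those that held 20 UMIs or more here. No member passed 1.5-fold in either direction in RPE-like cells, where 22.7% of those genes did (15.5% lower and 7.15% higher). That depended on the processing. Myrf was past 1.5-fold lower without the 5% deepest cells (-0.66, -0.87 to -0.44) and with thinned cells (-0.99, -1.63 to -0.38). Mfrp, Prss56 and Crb1 were past 1.5-fold higher under some alternatives. Among these were thinned cells for Mfrp (1.1, -0.39 to 2.71), and the marker gate given below for Prss56 (1.23) and Crb1 (1.89). At least 1 Myrf UMI was seen in 241 of 562 humWT cells (interval 38.7% to 47.1%, Clopper-Pearson) and 124 of 413 humdG cells (25.6% to 34.7%), with a median depth of 3867.5 and 2533 UMIs. Each cell was also thinned to 1000 UMIs, which left out no humWT cell and 2 humdG cells. The shares were then 12.5% (9.84 to 15.5) and 6.57% (4.37 to 9.41), intervals that did not overlap. With 1 library per genotype, depth or quality of the cells and genotype cannot be told apart as causes. Red blood cell-like cells gave thinned shares of 0.78% and 0.412%. The UMIs were unevenly spread: 68 humWT and 31 humdG cells held 5 or more, up to 64 and 46 in a cell, while 321 and 289 cells held none.

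**Figure D3:**
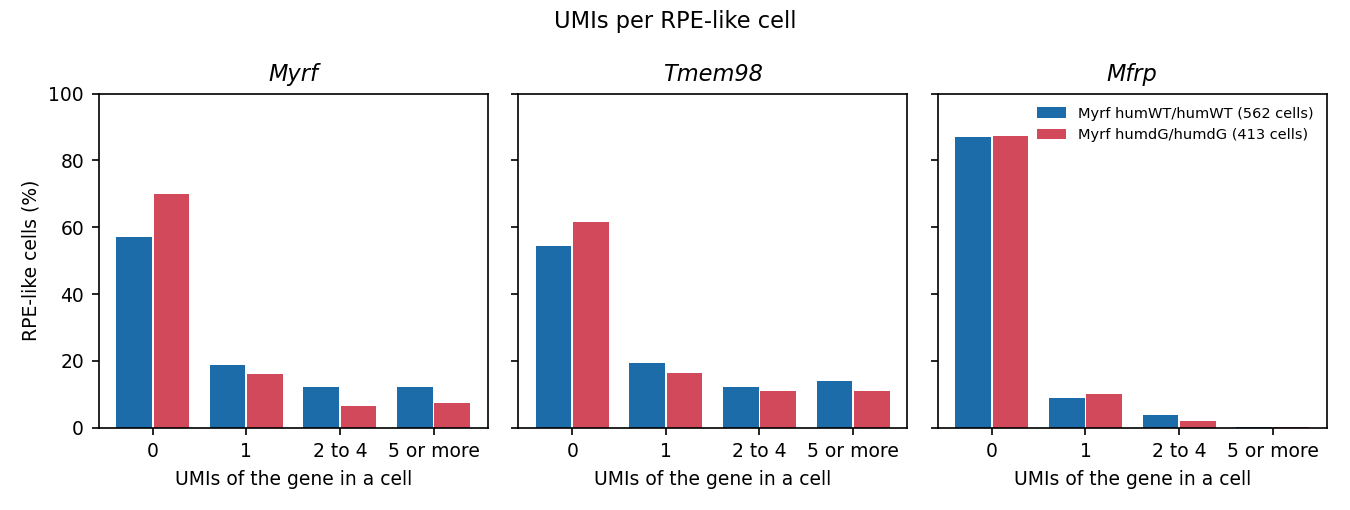
Share of RPE-like cells (%) with 0, 1, 2 to 4, or 5 or more UMIs of Myrf, Tmem98 and Mfrp, for 562 humWT (blue) and 413 humdG (red) cells, not corrected for depth. Cells with none were the largest group for each gene, and for Myrf they numbered 321 in humWT and 289 in humdG.

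RPE-like cells comprised a large and a small cluster. The large one (487 humWT and 398 humdG cells) was led by Ttr, Ptgds and Slc16a8 and gave Myrf levels of 292 and 199 CPM. The small one (75 and 15 cells) was led by Ankfn1, Otx2os1 and Pde1c and gave 198 CPM (162 to 241) and 96.6 CPM (41.7 to 190), the second from 8 UMIs. Other marker lists also moved within RPE-like cells: the 9 retinal progenitor markers, all with a UMI, summed to 853 CPM in humWT and 1310 in humdG, the 12 mesenchyme markers, also all with a UMI, to 1950 and 849, and the 8 red blood cell markers, again all seen, to 5810 and 7320. The 10 RPE markers themselves summed to 19000 and 18400 CPM. The part of these shifts in the Myrf ratio was not tested.

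Outside RPE-like cells, Myrf was lower in humdG as well. In 10 other classes with at least 20 UMIs over both libraries, the log2 ratio ran from -3.32 (tendon-like, from 69 and 1 UMIs) to -0.27 (photoreceptor precursor-like), and in 8 of them the interval lay below 0. Retinal progenitor-like cells went from 5.54 to 1.82 CPM and muscle-like cells from 11.7 to 3.33 CPM. Red blood cell-like cells stood at 7.03 and 2.68 CPM, from 16 and 3 UMIs. In retinal progenitor-like and mesenchyme-like cells, Myrf did not exceed that background in either library. In retinal progenitor-like cells Myrf and Prss56 were past 1.5-fold lower among the 4 members with enough UMIs, where 10.7% of 16053 genes were, and none was past it higher, where 5.17% were. Among the 4 with enough UMIs in mesenchyme-like cells, Myrf was past 1.5-fold lower (4.41 to 2.49 CPM) against 8.49% of 15192 genes, and Crb1 higher (6.73 to 13.7 CPM) against 4.85%. Those Crb1 levels did not exceed the red blood cell-like background of 7.91 and 19.7 CPM. The summed RPE markers fell alongside Myrf, from 262 to 122 CPM in retinal progenitor-like, from 503 to 305 in muscle-like and from 189 to 76.6 in mesenchyme-like cells, and their part was not tested.

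Tmem98, which codes for the MYRF-binding membrane protein, was also highest in RPE-like cells but was seen in every class. Its RPE-like level was 384 CPM (366 to 403, 1674 UMIs) in humWT and 323 CPM (301 to 346, 806 UMIs) in humdG, 11.6-fold and 8.57-fold above the next class. RPE-like cells held 37.0% and 26.0% of all Tmem98 UMIs, a smaller part than for Myrf. The next levels in humWT were neurogenic-like (33.2 CPM), pericyte-like (33.0), melanocyte-like (32.8) and retinal progenitor-like (31.0), which did not differ beyond their intervals. The lowest level in both libraries was that of white blood cell-like cells, at 10.5 and 5.59 CPM, and red blood cell-like cells gave 16.3 and 6.26 CPM.

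The Tmem98 ratio in RPE-like cells was -0.25 (-0.37 to -0.13), a 1.19-fold lower level in humdG. Thinned to 1000 UMIs a cell, 16.9% of humWT cells (13.9 to 20.3) and 13.6% of humdG cells (10.5 to 17.3) held a UMI, intervals that overlapped. Under 12 of 13 alternative ways of processing the ratio was below 0, and 9 of the 11 intervals given left out 0. RPE cells were also taken by a gate, at least 4 of 7 pigment and RPE markers and no Pax3. With it the ratio was 0.0 (-0.12 to 0.12). That gate took 930 humWT and 414 humdG cells, of which 395 and 266 were RPE-like, 53 and 12 retinal progenitor-like and 64 and 7 muscle-like. In retinal progenitor-like cells Tmem98 was at 31.0 and 25.9 CPM, a ratio of -0.26 (-0.43 to -0.08). In mesenchyme-like cells, the connective tissue class, it was at 15.9 and 11.8 CPM, a ratio of -0.43 (-0.77 to -0.1). The red blood cell-like level was 16.3 CPM in humWT, about the same, and 6.26 CPM in humdG. At resolution 1.0 the mesenchyme-like class took in more cells, 2005 humWT and 1014 humdG against 1155 and 508. Its ratio was then -0.17 (-0.35 to 0.01), an interval that held 0. Of the 14 other classes compared, 4 had an interval below 0 (retinal progenitor-like, mesenchyme-like, muscle-like and red blood cell-like) and none above.

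Myrf and Tmem98 were rarely seen in the same cell at equal depth. After thinning, 70 of 562 humWT RPE-like cells held Myrf, 95 held Tmem98 and 19 held both. In humdG, 27 of 411 held Myrf, 56 held Tmem98 and 3 held both. At 1000 UMIs a cell most molecules of either gene go unseen, so that these counts give no share of cells making both.

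Mfrp was sparse and was found mainly in RPE-like cells. Its RPE-like level was 25.7 CPM (21.1 to 30.9, 112 UMIs) in humWT and 27.3 CPM (21.2 to 34.6, 68 UMIs) in humdG, a log2 ratio of 0.09 (-0.37 to 0.53). At this depth a difference within that interval could not be seen. RPE-like cells held 63.6% and 66.0% of its UMIs, and no other named class reached above 2.2 CPM in humWT or 1.1 CPM in humdG. Melanocyte-like cells held no Mfrp UMI in either library, with upper ends of the interval at 2.09 CPM in humWT and 3.98 CPM in humdG. A Mfrp UMI was seen in 73 of 562 and 52 of 413 RPE-like cells. In the red blood cell-like class 5 of 519 and 1 of 248 cells held one.

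Mfrp counts carry a limit of annotation. All 1589 exonic bases of C1qtnf5, a secreted protein gene at chr9:44107245-44109187, also lie in Mfrp exons and include their 3′ end, where a 3′ library reads. That leaves 2745 of the 4334 exonic bases of Mfrp to itself, and 648 bases overlap Gm20444 and 54 bases Rnf26 on the other strand. The count table gave C1qtnf5 2 UMIs in humWT and 0 in humdG over all kept cells, none of them in RPE-like cells. Reads that match both genes are left uncounted by the pipeline used, and how many there were was not tested. Exons of the other 4 members overlapped no exon of another annotated gene, and overlap with introns was not searched.

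Prss56, the secreted protease, was highest in retinal progenitor-like cells and was lower there in humdG. The level was 58.7 CPM (55.0 to 62.7, 912 UMIs) in humWT and 36.4 CPM (34.1 to 38.7, 957 UMIs) in humdG, a log2 ratio of -0.69 (-0.82 to -0.56) or 1.62-fold lower. Over the 16053 genes tested in this class the median ratio was -0.03, and 15.9% were past 1.5-fold in either direction. Both progenitor clusters gave the same order, 46.1 against 28.3 CPM in one led by Tafa1, Cntn6 and Cp, and 70.8 against 44.1 CPM in the other, led by histone genes of dividing cells. A Prss56 UMI was seen in 19.3% of humWT and 15.3% of humdG progenitor-like cells at similar depths (median 8327 and 8606 UMIs), and in 4.21% (3.33 to 5.25) and 3.21% (2.61 to 3.9) after thinning. Few cells carried much of it: 52 humWT and 47 humdG cells held 5 or more UMIs, with up to 20 and 28 in a cell. The retinal progenitor markers moved the other way, their sum being 4300 CPM in humWT and 5260 in humdG.

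Of the named classes, neurogenic-like cells, which are leaving the cycle, were next in humWT with 11.3 CPM. They had 6.22 CPM in humdG, a ratio of -0.86 (-1.53 to -0.18). In RPE-like cells Prss56 was at 4.36 CPM from 19 UMIs and 4.81 CPM from 12 UMIs, with red blood cell-like cells at 2.2 and 6.26 CPM, so that the humdG level did not exceed background. The ratio was 0.14 (-1.03 to 1.26). With the marker gate it was 1.23 (0.85 to 1.61), from 109 and 126 UMIs. An unnamed cluster that raised 7 of 9 amacrine and horizontal markers and 7 of 9 ganglion cell markers gave 11.5 CPM (8.07 to 15.9) in humWT and 26.7 CPM (23.2 to 30.7) in humdG. That cluster ran opposite to the progenitors. The difference between those ratios was not tested. Another unnamed cluster, led by histone genes, gave 22.2 CPM in humWT and 11.8 CPM in humdG, a ratio of -0.91 (-1.48 to -0.36).

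Crb1, the Crumbs polarity gene, held 5320 UMIs in the kept humWT cells and 10090 in the humdG cells and, of the named classes, was highest in retinal progenitor-like cells. There it stood at 194 CPM (3004 UMIs) in humWT and 204 CPM (5359 UMIs) in humdG, a ratio of 0.07 (0.01 to 0.14), or 1.05-fold, which with 1 pool per genotype cannot be told apart from a difference between pools. The interval held 0 without the 5% deepest cells (-0.02 to 0.12) and with thinned cells (-0.08 to 0.28). A UMI was seen in 71.5% of humWT and 73.4% of humdG cells, and in 18.7% (16.9 to 20.6) and 20.9% (19.4 to 22.4) after thinning. The progenitor cluster led by Tafa1 had more, 252 and 262 CPM, than the one led by histone genes, 138 and 147 CPM, in each library. The order of the retinal classes was the same in both: amacrine and horizontal-like cells at 96.0 and 96.4 CPM, neurogenic-like at 75.9 and 68.0, and photoreceptor precursor-like at 48.4 and 47.7. In none of these 3 classes did the interval of the ratio leave out 0.

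The unnamed cluster with amacrine and ganglion markers differed from them, with 110.0 CPM (99.0 to 123) in humWT and 249 CPM (237 to 260) in humdG. RPE-like cells held 15.1 CPM (11.7 to 19.3) and 15.6 CPM (11.1 to 21.4), a ratio of 0.05 (-0.56 to 0.64), and in humdG this was below the 19.7 CPM of red blood cell-like cells. Taking RPE cells by the marker gate gave 516 and 943 Crb1 UMIs and a ratio of 1.89 (1.73 to 2.05). The gate also took 53 humWT and 12 humdG progenitor-like cells. From the unnamed cluster with amacrine and ganglion markers it took 57 and 36 cells. The part of these cells in that ratio was not tested. Of 13 classes compared other than progenitor-like, the other retinal classes and RPE-like cells included, 6 had a Crb1 interval above 0 and 1 below. All 6 lay outside the retina. Among them were muscle-like (14.6 to 37.9 CPM), cartilage-like (11.7 to 46.8) and red blood cell-like cells (7.91 to 19.7), the last being the background. Mesenchyme-like (6.73 to 13.7) and pericyte-like cells (4.85 to 8.0), also among the 6, stood below that background in both libraries. The summed progenitor markers were higher in humdG too, 606 and 1110 CPM in muscle-like and 777 and 1040 CPM in cartilage-like cells. Progenitor-like cells made up 1782 of 16166 kept humWT cells and 3001 of 18173 kept humdG cells, and the part of either in the Crb1 levels was not tested.

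**Figure D4:**
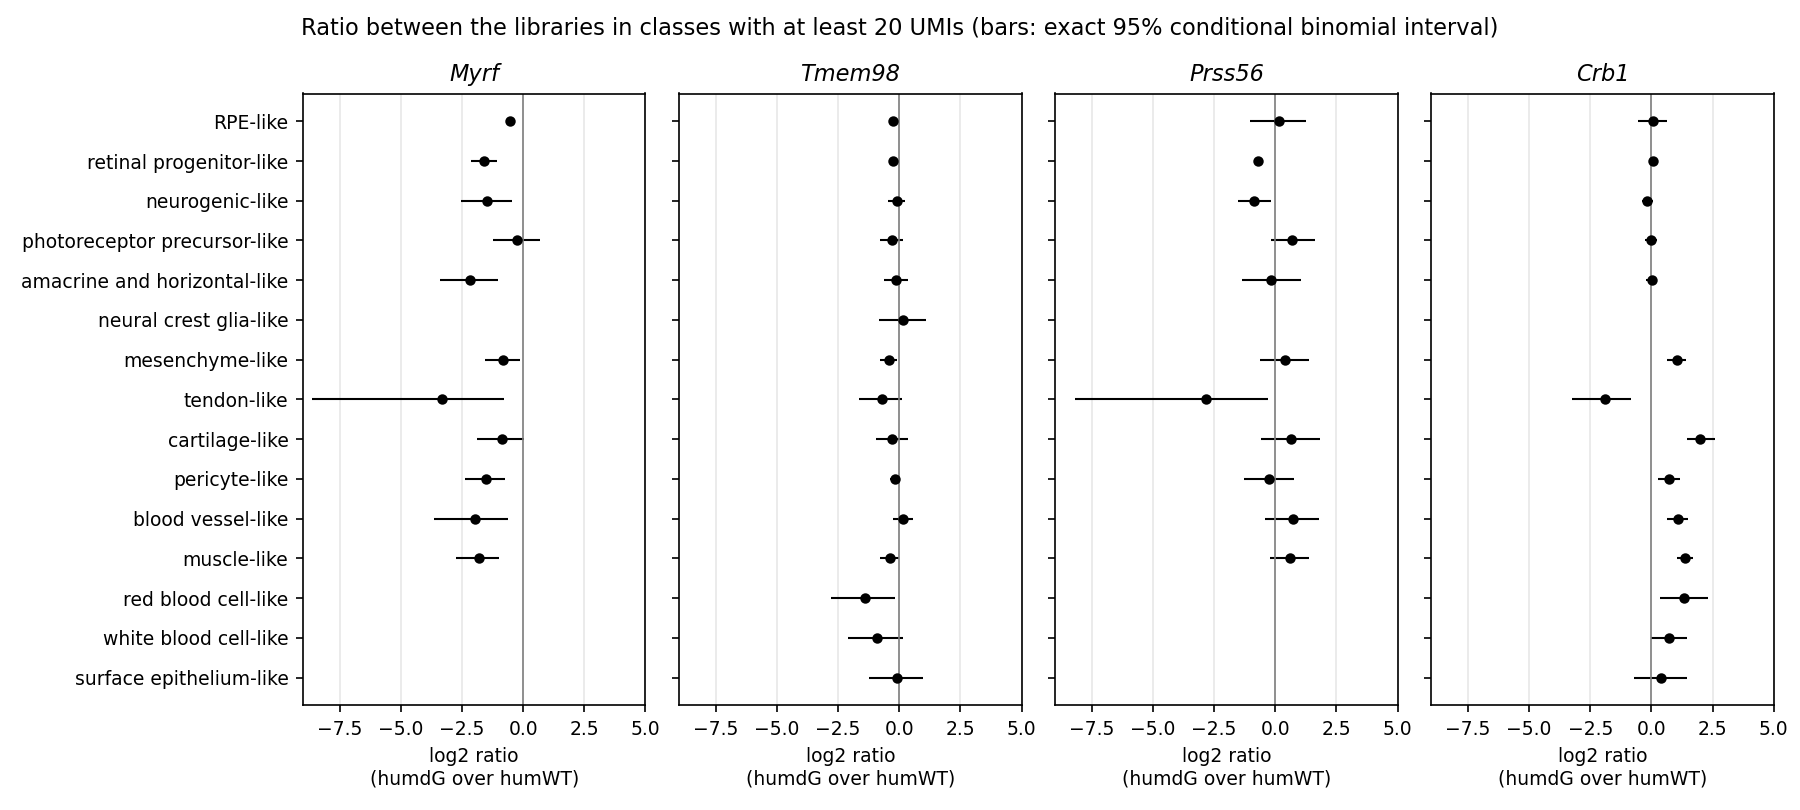
Log2 ratio of humdG over humWT with its exact 95% conditional binomial interval for Myrf, Tmem98, Prss56 and Crb1 in every class compared with at least 20 UMIs over both libraries. Mfrp reached 20 UMIs in RPE-like cells alone and is not drawn. Myrf lies below 0 in all classes drawn, and Tmem98 between -1.38 (red blood cell-like) and 0.16 (blood vessel-like). The whole Crb1 interval lies above 0 in 6 of its classes other than retinal progenitor-like, and tendon-like cells are at -1.9.

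The genes whose levels ran most like those of a member over the 32 class by library sums were named by Pearson correlation of log2(CPM + 1), as a description across sums that share libraries and depth. Htr3a, a serotonin-gated channel (r = 0.96), and Ggt1, a glutathione-handling enzyme (0.94), were among the 3 nearest to Myrf. Htr3a was at 117 CPM in humWT and 61.8 CPM in humdG RPE-like cells, and Ggt1 at 194 and 205 CPM. Rdh5, the retinol dehydrogenase of the RPE (0.89), A930028N01Rik (0.88) and E130120K24Rik (0.87) were nearest to Tmem98. Gip (0.95) and the organic anion transporter gene Slc22a8 (0.94) were among the 3 nearest to Mfrp. Tafa1 (0.88), Hs3st4 (0.87) and Usp44 (0.87) were nearest to Prss56, and C130071C03Rik (0.95), the synaptic adhesion gene Nlgn1 (0.95) and Gm26709 (0.93) were nearest to Crb1.

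Other genes of eye size were counted in RPE-like cells from fixed lists. Best1 (bestrophin, an RPE chloride channel) held 3 UMIs in each library and C1qtnf5 none, too few for a ratio. Of 27 genes associated with refractive error, 20 had at least 20 UMIs, of which 5 were past 1.5-fold lower and 3 higher in humdG, with a median ratio of -0.12. Over all 12665 genes of the class, 15.5% were lower and 7.15% higher, with a median of -0.07. Highest in the class were Rdh5 (739 and 799 CPM) and the secreted Wnt modulator Sfrp1 (612 and 816 CPM). The lowest ratio was that of the growth factor gene Bmp3, -3.0 (-6.12 to -1.01), from 28 and 2 UMIs, and the highest that of the retinal transcription factor Six6, 1.7 (1.26 to 2.16), at 14.9 and 48.5 CPM. The Six6 levels were close to those of red blood cell-like cells, 22.4 and 43.0 CPM. Bmp3 stood at 6.42 CPM (4.27 to 9.28) and 0.802 CPM (0.0971 to 2.9), intervals that held its red blood cell-like levels of 5.27 and 2.68 CPM. It was highest in mesenchyme-like cells, at 80.8 and 52.3 CPM.

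Of 28 microphthalmia and anophthalmia genes, 23 had enough UMIs, 3 of them past 1.5-fold lower and 6 higher, with a median of -0.05, beside 15.5% and 7.15% of all genes of the class. Otx2, a transcription factor of RPE and photoreceptors, was at 427 and 420 CPM. Mitf, the master regulator of pigment cells, was at 422 and 297 CPM, a ratio of -0.51 (-0.63 to -0.38). The lowest ratio was that of Smoc1, a secreted BMP antagonist, -1.58 (-2.2 to -1.01), from 157 and 30 UMIs.

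Of 14 genes of the Crumbs complex and its partners, 13 had enough UMIs, of which 3 were past 1.5-fold lower and 0 higher, beside 15.5% and 7.15% of all genes of the class, with a median of -0.31 beside -0.07. Pard3, a polarity scaffold, was at 153 and 91.8 CPM (ratio -0.73, -0.95 to -0.51), and Patj, a tight junction scaffold, at 94.7 and 64.6 CPM (-0.55, -0.82 to -0.29). The lowest ratio was that of Mpp4, -1.78 (-3.5 to -0.4), from 30 and 5 UMIs. Crb3, the epithelial Crumbs gene, had the highest, 0.46 (0.09 to 0.82), at 33.9 and 46.5 CPM.

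Of 12 myelin and oligodendrocyte genes, a list that holds myelin genes as well as transcription factors, 6 had enough UMIs in RPE-like cells, 1 of them past 1.5-fold lower and 0 higher, beside 15.5% and 7.15% of all genes of the class, with a median of -0.1. Ermn, an actin-binding myelin protein, was at 141 and 147 CPM, a ratio of 0.06 (-0.13 to 0.25). Sox10, a transcription factor of glia, was at 79.6 and 59.0 CPM (-0.43, -0.72 to -0.15). Mag, a myelin adhesion protein, had the lowest ratio, -2.53 (-3.79 to -1.49), from 81 and 8 UMIs, and Cnp, a myelin enzyme, the highest, 0.32 (-0.33 to 0.95).

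**Figure D5:**
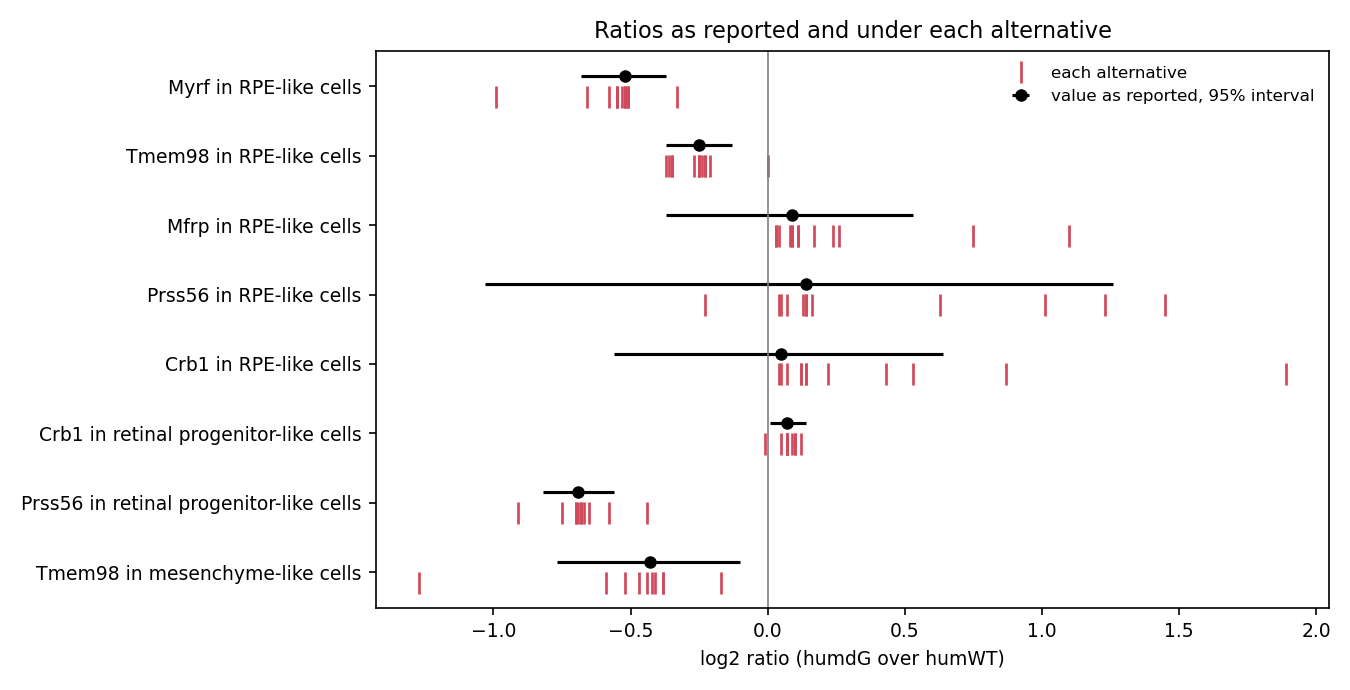
Log2 ratio (humdG over humWT) of 8 gene and class pairs as reported (black, with the exact 95% interval) and under each alternative processing (red ticks). Myrf in RPE-like cells and Prss56 in retinal progenitor-like cells stayed below 0 throughout, and Tmem98 in RPE-like cells reached 0.0 with the marker gate.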

How the data were processed

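Single-cell RNA of 2 libraries, 1 per genotype, was analysed. The authors deposited raw UMI counts per gene and barcode, made per the labels with Cell Ranger 7.1.0 on mm10, with Seurat 4.1.1 also named; whether intronic reads were counted is not given in the sources used here. A barcode was kept if it had over 500 genes detected and a mitochondrial share below 15%. Scrublet marked 0 cells in either library and so had not worked, and the 5% with the highest doublet scores were removed (851 and 956). Cells were integrated over 20 dimensions and clustered at resolution 0.5 (Seurat 5.3.0, R 4.3.3) without the members, and clusters were named from marker lists. The members, gene lists and marker lists were chosen with earlier results of these data known, and the rule that turns raised markers into a name was written after the files were seen. UMIs were summed per class and library. With 1 library per genotype no test was possible. Intervals are exact at 95% and cover counting error only. In RPE-like sums simulated with counting error alone, they held the true ratio for 95.3% of 8048 unchanged genes. That checks the calculation and says nothing of the spread between cells or animals. Named are the 5 members, C1qtnf5, the 3 genes most correlated with each member (at least 100 UMIs), and from each list the 2 highest genes and the lowest and highest ratio; 2 genes that this rule names are not reported here. A gene entered the ratios with 20 UMIs or more in a class, both libraries counted, and past 1.5-fold counted as lower or higher. Alternatives were another resolution, no integration, the largest cluster kept, more than 200 genes, no doublet removal, TMM scaling (edgeR 4.0.16), thinning, means over cells, deep cells left out, background subtraction and a marker gate. Use of the largest RPE-like cluster alone and removal of barcodes shared by both libraries were added after seeing the data.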

Additional observations from a re-analysis of the deposited data

Results flagged for a closer look

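Crb1 ran in opposite directions in a pair of non-retinal classes: the log2 ratio of humdG over humWT was -1.9 (-3.24 to -0.83, from 181 and 7 UMIs) in tendon-like cells and 2.0 (1.44 to 2.58, from 41 and 79 UMIs) in cartilage-like cells. These results stand out because the classes move opposite ways, and the difference between them was not tested. Tendon-like cells numbered 233 in humWT and 55 in humdG, and cartilage-like cells 1164 and 136. At resolution 1.0 the tendon-like cells split into 142 humWT and 52 humdG cells, and 92 and 3 cells that also raised 5 of 9 muscle markers. Cartilage-like cells split into 690 and 109 cells, and 473 and 28 cells with a median of 3110 and 19687.5 UMIs. In red blood cell-like cells Crb1 stood at 7.91 and 19.7 CPM. The part of these differences in the ratios was not tested. In humdG cartilage-like cells, 1 cell held 15 of the 79 Crb1 UMIs.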

How the results depend on the processing

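Of the 8 ratios, Myrf in RPE-like cells was below 0 under all 13 alternatives (-0.99 to -0.33) and Prss56 in retinal progenitor-like cells under all 11 (-0.91 to -0.44). With the marker gate for RPE cells, Myrf was -0.33, Crb1 1.89, Prss56 1.23 (0.85 to 1.61) and Tmem98 0.0, where Tmem98 lost its direction. Thinned to 1000 UMIs, the values in RPE-like cells were -0.99 for Myrf, 1.1 for Mfrp, 1.45 for Prss56 and 0.87 for Crb1, while Prss56 in retinal progenitor-like cells was -0.44 and Tmem98 in mesenchyme-like cells -1.27; all but those of Myrf and Prss56 in progenitors rest on at most 22 UMIs in a library. The mean over cells gave 0.75 for Mfrp. After subtraction of the red blood cell-like level, Prss56 in retinal progenitor-like cells was -0.91 and Crb1 there -0.01, a turn in direction, and no value was left for Prss56 and Crb1 in RPE-like cells or Tmem98 in mesenchyme-like cells, where a library fell below 0. The cause of these shifts and turns was not tested. All other alternatives run left each ratio within its interval as reported. At resolution 1.0, however, where more cells were mesenchyme-like, the interval of Tmem98 in that class (-0.17, -0.35 to 0.01) held 0. So did that of Crb1 in retinal progenitor-like cells without the deepest cells (0.05, -0.02 to 0.12). No paired analysis was possible because each genotype has 1 library. Depth limits the RPE-like ratios of Mfrp (112 and 68 UMIs), Crb1 (66 and 39) and Prss56 (19 and 12).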
